A study of Mus musculus with 12 samples.

Results

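Leydig cells lie between the seminiferous tubules of the testis and make its steroid hormones. Reads of 8 genes of this cell type (Insl3, Cyp11a1, Fdx1, Cyp17a1, Ptgds, Fabp3, Aldh1a1 and Mgst1) were followed in direct RNA sequencing libraries of sorted mouse spermatids. The genes were taken by symbol. They matched 9 contigs, the annotated transcripts to which reads were assigned, of 12114 counted contigs, because Aldh1a1 had 2. All 9 passed the filter on low counts (10 or more reads in 2 or more libraries of any group), which left 11831 contigs for testing. The 12 libraries held round spermatids (RS) or elongated spermatids (ES) of adult mice that were Tent5c wt/wt or Tent5c dcat/dcat, with 3 libraries in each of the 4 groups. TENT5C is a poly(A) polymerase, and the dcat allele encodes a catalytically inactive form. Each library was made from poly(A) RNA pooled from the spermatids of 3 mice. The study took its germ cell types from the same animals, so RS and ES pools are not from independent mice. Which RS and ES libraries share mice is not stated, and the main tests below did not pair libraries.

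The dcat allele is a germline change and is not driven by a cell type promoter, so any somatic cell of the mutant testis carried it as well. Per the study's methods, collagenase loosened the interstitial tissue, its cells were drawn off with the fluid once the tubules had settled, and the tubules were rinsed before they were taken apart. Cells that took up propidium iodide were left out as dead, spermatids were taken from the Hoechst gate of haploid cells, and RS and ES were told apart by light scatter. Leydig cells are diploid somatic cells, which these steps are meant to remove, but no Leydig cell marker was used. In these bulk libraries fewer Leydig cells and less RNA per Leydig cell cannot be told apart. Library totals ran from 337287 to 1359427 reads, and the lowest was ES wt/wt replicate 3. A count of 3 reads, used as the detection floor, corresponded to 1.77 to 10.6 CPM, the count scaled to the size of its library, and this floor covers counting error only.

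Androgen synthesis starts when the mitochondrial enzyme CYP11A1 cleaves the side chain of cholesterol, using electrons that ferredoxin (FDX1) carries from its reductase. CYP17A1, in the endoplasmic reticulum, then turns the resulting progestogens into androgen precursors. INSL3 is a relaxin-family peptide hormone of Leydig cells that guides testis descent before birth and serves as a readout of the mature Leydig cell. Transcription of steroidogenic genes in this cell depends on the nuclear receptor SF-1, which binds DNA as a monomer at CAAGGNC-like elements.

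The reading of Insl3 depends on a neighbour, so its sequence comes before its values. Insl3 (contig ENSMUST00000034261) has 2 exons on the plus strand of chromosome 8, at chr8:71689214-71690575 of GRCm38. Its last exon, chr8:71690172-71690575, is also the last exon of the Jak3 contig ENSMUST00000051995, which encodes a Janus kinase and starts upstream on the same strand. A read that ended within these 404 bases could not be assigned to either gene by sequence, and the splice junction that leads into the shared exon is what tells the 2 contigs apart. The junctions are given below 5′ to 3′, with 15 bases of each upstream exon in lower case and 15 bases of the shared exon in capitals.
Insl3 junction: tggagacccgggaccGGGAGCTGCTGCAGT
Jak3 junction: cagccaggggcgagaGGGAGCTGCTGCAGT

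Promoter windows of the members were read for the SF-1 element named above, and no link to the stage difference was tested. RefSeq windows of 250 bases before a start site (GRCm38.p6) were at hand for 7 of the 8 genes; Cyp17a1 had no entry. The motif CAAGGNC, searched on both strands, was found in 5 of 10 member windows, from 5 genes, and in 15% of 32851 windows in all. Distances are to the RefSeq start site, which differs from the start of the counted contig for Insl3, Aldh1a1 and Fdx1. In the Insl3 window the motif occurred on the gene's own strand, 137 and 57 bases before the RefSeq start site. That window ends at 71689251, inside the counted contig, which starts at 71689214. Ptgds held it at 232 bases on the same strand and at 64 bases on the opposite strand. Aldh1a1 held it at 19 bases on the same strand, and Fdx1 at 124 bases on the opposite strand. The Mgst1 match, at 154 bases on the opposite strand, was in a window (chr6:138141337-138141586) downstream of the start of the counted contig (138140316). The other Mgst1 window, at that start, had no match. The sequences below, 5′ to 3′ on the gene's strand, show the Insl3 pair, the Aldh1a1 match close to the start site, and the Fdx1 match for contrast, since Fdx1 was the member whose level did not follow the others. The Insl3 and Aldh1a1 sequences were trimmed where an annotated exon began, the Fdx1 window is whole, and capitals mark the motif. The Insl3 window lies within the intron of Jak3 that precedes the shared exon. A match describes these letters and was not tested for binding. No difference from the share of all windows was tested.
Insl3, chr8:71689002-71689213, plus strand: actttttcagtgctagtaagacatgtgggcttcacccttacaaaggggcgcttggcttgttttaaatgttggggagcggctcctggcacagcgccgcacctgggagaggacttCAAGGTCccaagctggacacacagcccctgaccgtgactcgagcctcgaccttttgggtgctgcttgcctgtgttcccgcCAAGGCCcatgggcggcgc
Aldh1a1, chr19:20601718-20601960, plus strand: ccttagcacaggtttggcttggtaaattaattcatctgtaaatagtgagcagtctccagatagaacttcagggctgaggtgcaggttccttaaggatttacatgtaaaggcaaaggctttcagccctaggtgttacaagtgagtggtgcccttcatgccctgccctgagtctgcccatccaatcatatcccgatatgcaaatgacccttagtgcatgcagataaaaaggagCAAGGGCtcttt
Fdx1, chr9:51963603-51963852, minus strand: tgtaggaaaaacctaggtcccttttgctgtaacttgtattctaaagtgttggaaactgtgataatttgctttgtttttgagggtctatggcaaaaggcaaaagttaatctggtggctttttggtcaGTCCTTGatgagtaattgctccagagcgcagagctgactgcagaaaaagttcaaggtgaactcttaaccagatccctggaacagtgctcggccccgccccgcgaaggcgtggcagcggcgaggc

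Insl3 and 6 of the other genes had more reads per library size in ES than in RS in both genotypes, and Fdx1 did not. For 7 of the 9 contigs, those of Cyp11a1, Cyp17a1, Ptgds, Fabp3, Aldh1a1 and Mgst1, the filter was met by ES libraries only, so these contigs were in the test because they were counted in ES, and a difference in their RS and ES levels could hardly go the other way. Insl3 and Fdx1 met it in both stages. In wt/wt spermatids 8 of the 9 contigs were higher in ES at an adjusted p of at most 0.05 (edgeR's quasi-likelihood test, Benjamini-Hochberg over all contigs), and 23.8% of all tested contigs were higher and 16.5% lower. In dcat/dcat spermatids the same number were higher, where 24.0% of all contigs were higher and 16.9% lower. Given how the 7 entered the test, nothing is read from these counts against the shares of all contigs. The same limit holds for the fold changes and adjusted p of these 7 contigs in the paragraphs on single genes. Their direction was largely set by the filter, so those p-values are not independent evidence of it. Fdx1 was the contig not called in either genotype. These libraries are relative measures, so a higher CPM in ES is not a larger amount per cell. Nor is it a plain share of the reads, since TMM factors adjust each library total. Scaled to total reads alone, the Insl3 log2 fold change of ES over RS was 3.56 in wt/wt and 3.57 in dcat/dcat.

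**Figure D1:**
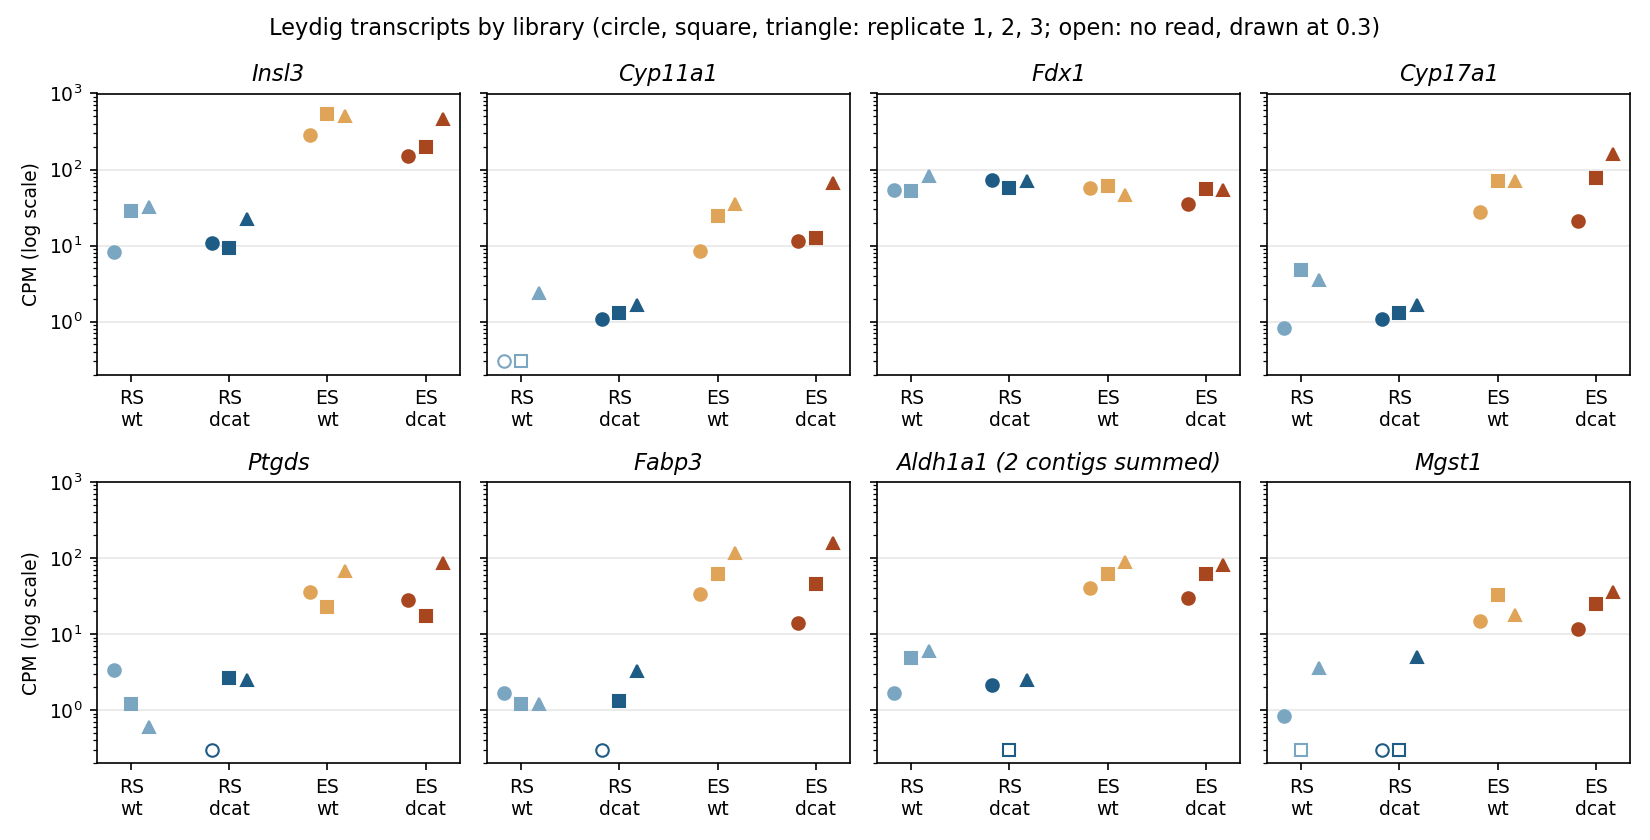
CPM of each Leydig gene (log axis) in the 12 libraries, by group, with a point per library and open symbols for libraries without a read; the Aldh1a1 contigs are summed. Apart from Fdx1, every gene has all 6 ES libraries above all 6 RS libraries, with Insl3 between 151 and 540 CPM in ES.

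Insl3, the hormone of the set, had the most reads of the set in ES. The wt/wt RS libraries held 8.31, 28.6 and 31.9 CPM, and the dcat/dcat RS libraries 10.7, 9.18 and 22.2 CPM. The wt/wt ES libraries held 283, 540 and 505 CPM, and the dcat/dcat ES libraries 151, 200 and 468 CPM. Every ES library lay above every RS library, and none of the 12 was at 0. Insl3 was thus the called member that was also counted well enough in RS to pass the filter there. The fitted log2 fold change of ES over RS was 4.25 (SE 0.509, n = 3 against 3; edgeR adjusted p = 1.56e-05) in wt/wt and 4.22 (SE 0.535, adjusted p = 2.97e-05) in dcat/dcat.

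The Jak3 contig had far fewer reads than its neighbour. The RS libraries held 1, 3 and 7 reads for wt/wt and 1, 3 and 4 for dcat/dcat. The ES libraries held 1, 20 and 5 for wt/wt and 1, 13 and 31 for dcat/dcat, so the lowest ES libraries overlapped the RS libraries. Insl3 had 134 and 65 reads in the 2 ES libraries in which Jak3 had a single read. The Jak3 contig was called higher in ES too (wt/wt log2 2.70, edgeR adjusted p = 0.0312; dcat/dcat log2 3.38, adjusted p = 0.00818). How many of its reads ended within the shared exon was not tested. With the Jak3 reads added to Insl3, the number of called Leydig contigs was again 8 in each genotype.

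Cyp11a1 and Cyp17a1, which encode P450 enzymes of the pathway, had few reads in RS. Cyp11a1 (ENSMUST00000034874; 9 exons, chr9:58014671-58027023, plus strand) had 0, 0 and 4 reads in the wt/wt RS libraries and 1, 1 and 2 in those of dcat/dcat. Reads in ES numbered 4, 13 and 10 for wt/wt and 5, 5 and 39 for dcat/dcat. Of the 6 RS counts 5 were under the floor of 3 reads and 1 was above it, at 4. The stages did not overlap in CPM, where ES ran from 8.45 to 65.8 and RS from 0 to 2.37. The log2 fold change was 4.19 (SE 0.956, edgeR adjusted p = 0.00294) in wt/wt and 4.39 (SE 0.895, adjusted p = 0.00129) in dcat/dcat. Without RS wt/wt replicate 3, which held all 4 wt/wt RS reads, the wt/wt value was 6.92, so the size of this change is imprecise.

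Cyp17a1 (ENSMUST00000026012; 8 exons, chr19:46667165-46672974, minus strand) had 1, 4 and 6 reads in the wt/wt RS libraries and 1, 1 and 2 in those of dcat/dcat. Reads in ES numbered 13, 37 and 20 for wt/wt (27.5 to 70.6 CPM) and 9, 31 and 94 for dcat/dcat (20.9 to 159 CPM). All ES libraries exceeded all RS libraries. The log2 fold change was 4.16 (SE 0.709, edgeR adjusted p = 0.000328) in wt/wt and 5.84 (SE 0.789, adjusted p = 4.87e-05) in dcat/dcat. With so few RS reads the size of the fold was imprecise: from summed counts the ES to RS ratio in dcat/dcat was 68.5, with a 95% counting interval of 26.1 to 255, and in wt/wt it was 18.5, with an interval of 9.75 to 38.8. The 1.68 difference between these log2 fold changes was not called in the stage by genotype test (SE 1.26).

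Fdx1, the electron carrier that serves CYP11A1 and also other mitochondrial P450 enzymes, did not share this pattern. Its contig (ENSMUST00000034552; 4 exons, chr9:51943306-51963546, minus strand) had at least 13 reads in every library. Its RS level was 53.2, 52.4 and 83.4 CPM for wt/wt and 72.7, 57.7 and 70.9 CPM for dcat/dcat. Its ES level was 57.0, 60.9 and 45.9 CPM for wt/wt and 34.8, 54.9 and 54.0 CPM for dcat/dcat. The stages overlapped in wt/wt, and in dcat/dcat the 3 ES libraries lay just below the 3 RS libraries. The log2 fold change was -0.20 (SE 0.265, edgeR adjusted p = 0.566) in wt/wt and -0.48 (SE 0.268, adjusted p = 0.163) in dcat/dcat. Scaled to total reads alone Fdx1 was called lower in ES, at -0.92 and -1.15, but that scaling moved the median of all contigs to -0.96 and -0.85. Without RS wt/wt replicate 3 the wt/wt value was 0.04.

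Ptgds encodes the lipocalin-type prostaglandin D synthase. Its contig (ENSMUST00000114259; 7 exons, chr2:25466709-25469749, minus strand) had 0 to 4 reads in the 6 RS libraries. Reads in ES numbered 17, 12 and 19 for wt/wt and 12, 7 and 51 for dcat/dcat, and all 6 exceeded RS in CPM. The log2 fold change was 4.48 (SE 0.783) in wt/wt and 4.62 (SE 0.783) in dcat/dcat, with edgeR adjusted p of 0.000397 and 0.000318.

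Fabp3, which encodes a fatty acid binding protein best known from heart and muscle, was also counted mainly in ES. Its contig (ENSMUST00000070532; 4 exons, chr4:130308595-130315463, plus strand) had 2, 1 and 2 reads in the wt/wt RS libraries and 0, 1 and 4 in those of dcat/dcat. Reads in ES numbered 16, 32 and 33 for wt/wt and 6, 18 and 92 for dcat/dcat. The stages did not overlap, although the dcat/dcat ES libraries alone ranged from 13.9 to 155 CPM. The log2 fold change was 5.50 (SE 0.909, edgeR adjusted p = 0.000256) in wt/wt and 5.32 (SE 0.896, adjusted p = 0.000297) in dcat/dcat. The dcat/dcat value was 6.60 without RS replicate 3 and 4.02 without ES replicate 3.

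Aldh1a1 encodes a retinaldehyde dehydrogenase, an enzyme of retinoic acid synthesis. Its 13-exon contig ENSMUST00000087638 (chr19:20601961-20643462, plus strand) and its 16-exon contig ENSMUST00000225337, which starts further upstream at chr19:20492715-20643465, end within 3 bases of each other. Reads that did not reach the upstream exons could fit both, so the split between the contigs is uncertain. Summed, they had 2, 4 and 10 reads in the wt/wt RS libraries and 2, 0 and 3 in those of dcat/dcat. The sums in ES were 19, 32 and 25 reads for wt/wt and 13, 25 and 48 for dcat/dcat, above RS in every library. Both contigs were higher in ES in both genotypes, with log2 fold changes of 3.68 (SE 0.534) and 3.85 (SE 0.727) for wt/wt and 5.30 (SE 0.678) and 4.46 (SE 0.799) for dcat/dcat. Without RS dcat/dcat replicate 3, which held the only dcat/dcat RS reads of the 13-exon contig, its value was 7.61.

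Mgst1, a membrane-bound glutathione transferase, had few reads in either stage. Its contig (ENSMUST00000008684; 4 exons, chr6:138140316-138156755, plus strand) had reads in 3 of 6 RS libraries: 1 and 6 in wt/wt and 6 in dcat/dcat. Reads in ES numbered 7, 17 and 5 for wt/wt and 5, 10 and 21 for dcat/dcat. CPM in ES ran from 11.6 to 35.5 and in RS from 0 to 4.94, without overlap. The log2 fold change was 3.51 (SE 0.815, edgeR adjusted p = 0.00332) in wt/wt and 3.52 (SE 0.816, adjusted p = 0.00314) in dcat/dcat. Each value moved with 1 RS library: without RS replicate 3 it was 5.05 in wt/wt and 7.19 in dcat/dcat.

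**Figure D2:**
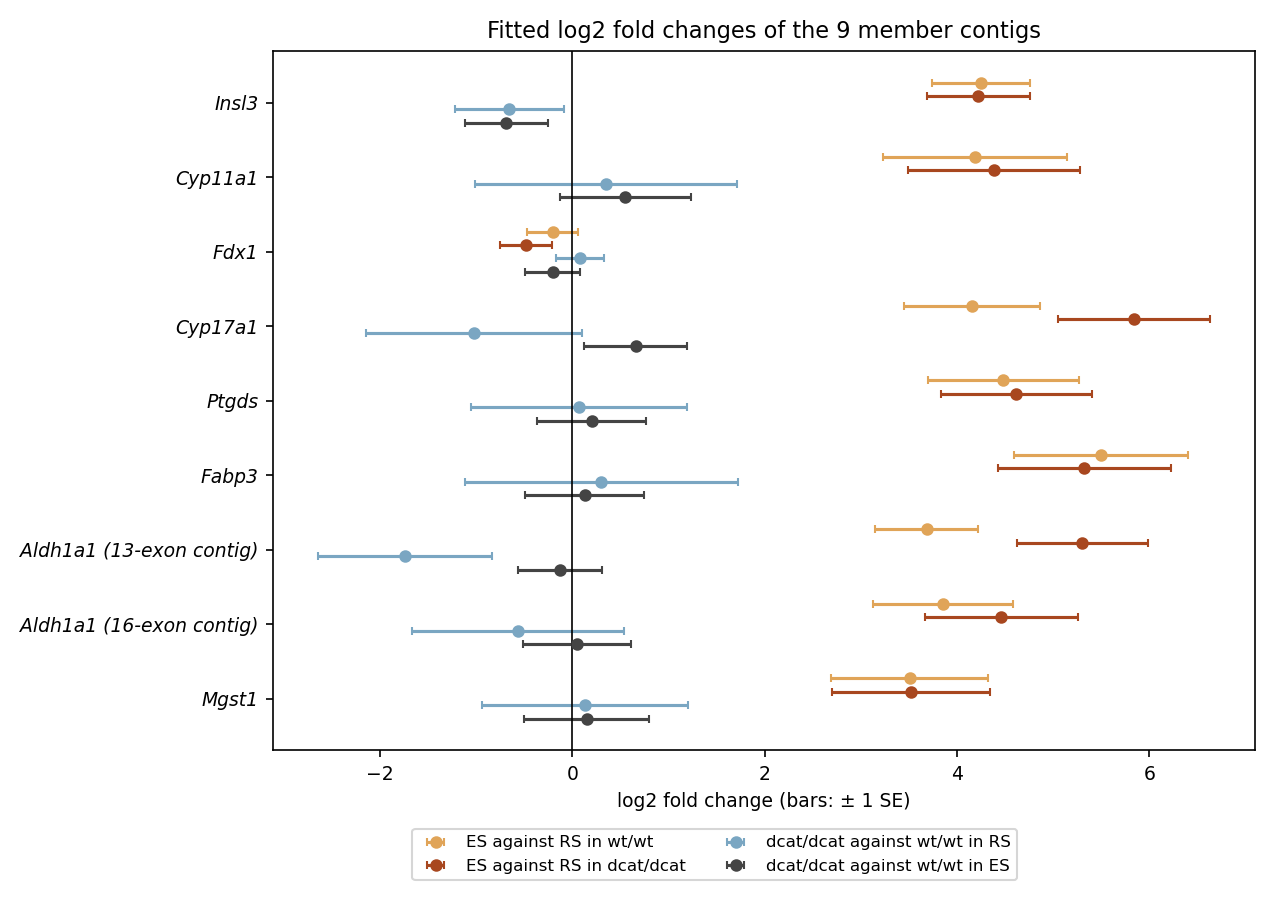
Log2 fold changes of the 9 Leydig contigs (x axis, with bars of 1 SE) in the 4 comparisons between groups. The ES against RS values lie between 3.51 and 5.84 for 8 contigs and near 0 for Fdx1, and the genotype differences lie around 0 with wide bars.

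No Leydig contig was called between the genotypes. In RS, in ES and in the stage by genotype interaction, edgeR called 0 of 9 members and 0% of all 11831 contigs. At an unadjusted p under 0.05 the same tests had 98, 356 and 170 contigs, none of them a member. DESeq2 called 0, 1 and 0 contigs in the 3 tests, and 0 members. With 3 libraries a group and few reads, differences between genotypes of the size of these standard errors were not detectable.

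In ES, no fitted genotype difference was called. The Insl3 log2 difference between dcat/dcat and wt/wt was -0.68 (SE 0.436), whereas Cyp17a1 had 0.66 (SE 0.537) and Cyp11a1 0.55 (SE 0.678). The remaining ES differences were 0.20 for Ptgds, 0.13 for Fabp3, 0.15 for Mgst1, -0.12 and 0.05 for the Aldh1a1 contigs, and -0.20 for Fdx1. Genotype groups overlapped for all 9 contigs in ES. The positive values of Ptgds and Fabp3 turned negative without 1 wt/wt library as well. Ptgds was -0.13 without ES wt/wt replicate 2, and Fabp3 was -0.24 without ES wt/wt replicate 1. The values of Cyp17a1, Cyp11a1, Ptgds and Fabp3 were all negative without ES dcat/dcat replicate 3. That library had the highest level of the 6 ES libraries for Cyp11a1, Cyp17a1, Ptgds, Fabp3 and Mgst1. Without this library Cyp17a1 stood at -0.18, Cyp11a1 at -0.84, Ptgds at -0.80, Fabp3 at -1.21 and Insl3 at -1.34, and these 5 genes then had the same sign.

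In RS, the 13-exon Aldh1a1 contig was the single member whose genotypes did not overlap in CPM, with 2, 2 and 6 reads for wt/wt and 0, 0 and 2 for dcat/dcat. Its log2 difference was -1.74 (SE 0.903, not called), and the ratio of summed counts was 0.256, with a 95% counting interval of 0.0273 to 1.20. The 16-exon contig had 0, 2 and 4 reads for wt/wt and 2, 0 and 1 for dcat/dcat, with overlap. Insl3 differed by -0.65 (SE 0.564) and Cyp17a1 by -1.02 (SE 1.12), neither called. Fdx1, the best counted member in RS, differed by 0.08 (SE 0.245).

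Taking reads relative to Insl3 in the same library removes depth and scaling. In ES wt/wt there were 8.27 Insl3 reads per Cyp17a1 read (geometric mean of 10.3, 7.68 and 7.15), and in ES dcat/dcat 3.80 (7.22, 2.58 and 2.95). ES dcat/dcat replicate 1 lay within the range of the wt/wt libraries, and the other 2 lay below it. Each sorting session took 1 mouse of each genotype, but whether same-numbered libraries shared sessions is not stated. By number, the ratio was lower in dcat/dcat in all 3 pairs. The log2 ratio differed by -1.12 (exact two-sided permutation test, p = 0.2, n = 3 against 3). For 8 such ratios computed, counting Jak3, the difference was negative each time, from -0.38 for Fabp3 to -1.31 for Jak3; all 8 share the Insl3 count. The smallest p that 3 libraries against 3 allow is 0.1, reached by Mgst1 alone (20.9 against 11.1 Insl3 reads per Mgst1 read, adjusted p = 0.32 over the 8), and this test cannot go lower with 3 libraries a group, so it could not pass the threshold.

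**Figure D3:**
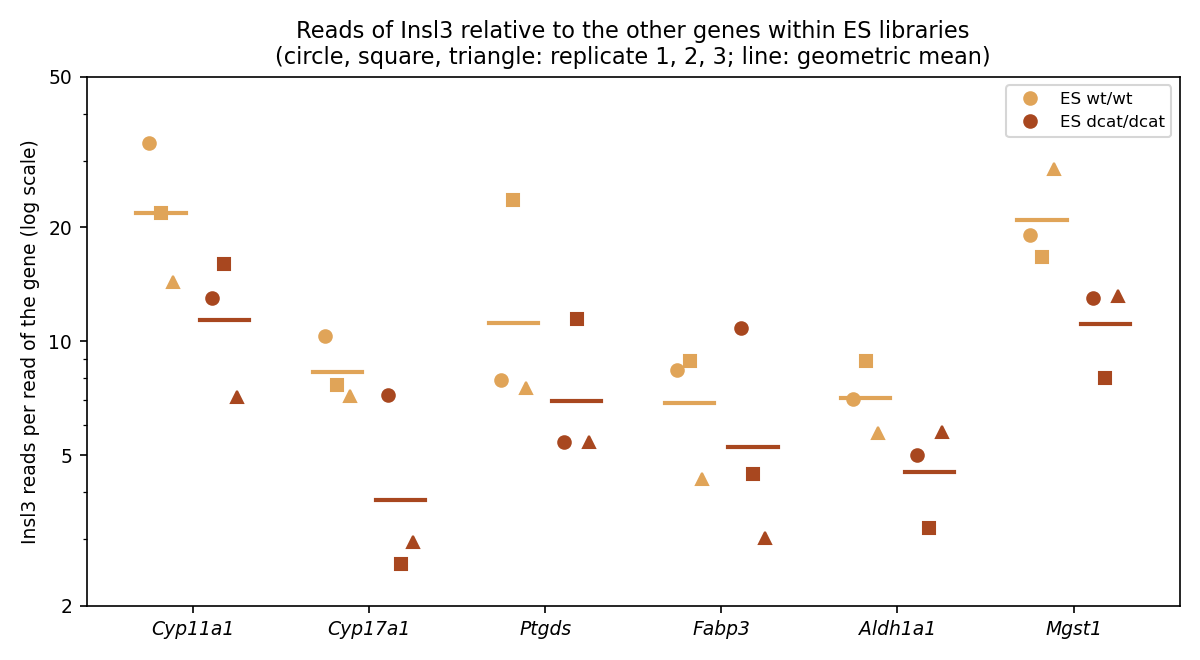
Insl3 reads per read of 6 other Leydig genes within each ES library (log axis), with a point per library and lines for geometric means. The dcat/dcat means lie below the wt/wt means for all 6 genes, and the libraries of the genotypes overlap for every gene but Mgst1.

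Insl3 supplied a similar share of the reads of the 7 genes other than Fdx1 in 3 of the groups. These shares are in reads, uncorrected for transcript length. For RS they were 61.9% ± 10.7 (SD, n = 3) with the wt/wt genotype and 62.4% ± 7.83 with dcat/dcat. For ES they were 62.1% ± 5.41 with wt/wt and 48.8% ± 6.67 with dcat/dcat. Single RS libraries rested on 12 to 83 reads and were wide: RS dcat/dcat replicate 2 gave 58.3%, with an exact 95% interval of 27.7 to 84.8%. ES dcat/dcat replicates 2 and 3 gave 45.5% (38.0 to 53.1%) and 44.5% (40.6 to 48.5%), below all 3 ES wt/wt libraries, which lay from 56.1 to 66.5%, while ES dcat/dcat replicate 1 gave 56.5% (47.0 to 65.7%). By replicate number the ES share was lower in dcat/dcat in all 3 pairs, with 63.8, 66.5 and 56.1% in wt/wt replicates 1, 2 and 3. These intervals cover counting error only.

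Within the 6 ES libraries no pair of Leydig genes had a correlation that passed the adjusted test. Pearson's r of log2 CPM was positive in 27 of 28 pairs, with a median of 0.69 and a maximum of 0.95 for Aldh1a1 with Fabp3 (Spearman's rho 0.89; exact permutation p = 0.00694 for r and 0.0333 for rho). Each r was also taken without the 2 libraries farthest from the median of the first-listed gene of the pair, which can differ between pairs. Aldh1a1 with Fabp3 then had r = 0.89, but over all pairs r ran from -0.85 to 0.89 and was positive in 18 of 28. With Fdx1, r was then positive in 3 of 7 pairs. Leaving out extremes narrows the range and leaves few libraries, which can weaken or turn r by itself. These values therefore cannot show that a sign rested on given libraries. After Benjamini-Hochberg adjustment over the 28 pairs 0 passed, the smallest adjusted p being 0.148, and 6 pairs had an unadjusted exact permutation p under 0.05. Among the 15 pairs without Fdx1 and Ptgds, r ran from 0.63 to 0.95. The 7 pairs with Ptgds ran from -0.08 to 0.75, and 6 of them were below 0 without their 2 farthest libraries. Insl3 with Cyp17a1 gave r = 0.65 (rho 0.31; exact permutation p = 0.175 and 0.564). With the genotype means removed the same pair had r = 0.93 and 7 pairs passed, but centring uses up information that the permutation does not count, so those p-values are too small. Within RS a single gene, Fdx1, had at least 10 reads in every library, and no pair was computed.

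Over all 12 libraries the pattern of Insl3 was set against that of other named contigs, with the members left out of the ranking. Of the 40 further Leydig genes 7 had a counted contig, so few Leydig genes could appear in it. Among 9381 other named contigs with a mean of at least 10 CPM, the nearest by Pearson's r of log2 CPM were Fam221b (r = 0.985), Or14j7 (0.982), Proca1 (0.980), Nol4 (0.979), Ccdc50 (0.979), Tex13a (0.979), Zfand3 (0.978) and Spata31d1b (0.978). Of the members, the 13-exon Aldh1a1 contig (0.976) would have ranked 11, Cyp17a1 (0.961) 94 and Fdx1 (-0.40) 5488. These correlations mostly carry the step between the stages. The 8 nearest contigs averaged 55.0 to 342 CPM, and the members other than Insl3 and Fdx1 averaged 12.2 to 36.6 CPM. The r of those members thus carries more counting error, and the ranks do not show which genes Insl3 follows best. By deviations from group means the nearest were Pmfbp1 (0.958), Vars1 (0.941), Paip2 (0.931), Mical3 (0.931), Rabac1 (0.928), Prdx1 (0.923), Trim17 (0.917) and Nbr1 (0.916), with Cyp17a1 at 0.807 and Ptgds at 0.226. No p is given, since the libraries share group, depth and pooling.

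Few other genes of the Leydig cell could be followed. Of 40 further steroidogenic and Leydig genes, 7 had a counted contig; Star, Hsd3b1, Hsd17b3, Lhcgr and Nr5a1, which carry cholesterol import, the later steps of androgen synthesis, the luteinizing hormone receptor and SF-1, were not analysed here. In wt/wt 7 of 11 tested contigs of 6 genes were higher in ES and 0 lower, and in dcat/dcat 6 were higher and 0 lower. In each genotype 5 of the higher contigs belonged to a single gene, Lipe, so these are not counts of genes. Of all tested contigs, 23.8% were higher in wt/wt and 24.0% in dcat/dcat, and no difference from these shares was tested. The filter was met in ES only by 3 of the 11. Gstm1, a glutathione transferase, was higher by 4.26 in wt/wt and 3.96 in dcat/dcat (edgeR adjusted p = 1.87e-06 and 3.64e-06). All 5 contigs of Lipe, the hormone-sensitive lipase, which also has a testis form in germ cells, were higher in both genotypes. For Scarb1, the high-density lipoprotein receptor, 1 of 2 contigs was higher in wt/wt (1.83) and neither was called in dcat/dcat, while Npc2, a lysosomal cholesterol carrier, had 0.35 and 0.28, not called.

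Genes of cholesterol synthesis, which feeds steroid synthesis but also runs in germ cells, were near the level of all contigs. Of 13 contigs 2 were higher and 1 lower in wt/wt, and 1 was higher and 3 lower in dcat/dcat, with medians of -0.33 and -0.25 beside -0.24 and -0.18 over all contigs. They stand beside the shares of all contigs called, given above, and no difference from those was tested. Among paralogs and partners of the members, 7 of 13 contigs were higher and 4 lower in both genotypes. Over all tested contigs 23.8% were higher and 16.5% lower in wt/wt, and 24.0% higher and 16.9% lower in dcat/dcat. Fabp9 and Fabp12, fatty acid binding proteins of the testis, were higher, the 3 Fabp9 contigs by 0.85 to 2.18 in wt/wt. Insl6, a relaxin-family gene of germ cells, was lower (-0.80, adjusted p = 0.00261), as were Aldh1a2 (-0.81, adjusted p = 0.0308) and Mgst3 (-1.09, adjusted p = 0.0150) in wt/wt. In wt/wt these relatives of Insl3, Aldh1a1 and Mgst1 thus had the opposite sign to the member.

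Most counted markers of Sertoli cells and macrophages, other somatic cells of the testis, were higher in ES as well. Of 18 Sertoli cell markers 8 had a counted contig, with 10 contigs in all. In each genotype 9 of these were higher in ES, among them Defb19 (3.44 in wt/wt and 3.80 in dcat/dcat), Aard (3.72 and 3.67), Clu (3.10 and 4.22) and Cst9 (3.82 and 3.38), and Dhh was not called. Of 10 macrophage markers 3 had a counted contig, and Cd74 (5.55 and 5.91), Apoe (3.08 and 3.37) and C1qb (2.94 and 2.89) were all higher in ES. The filter was met in ES only by 7 of the 10 Sertoli contigs and by all 3 macrophage contigs, so the limit given for the Leydig contigs holds for these counts too. Sox9, Wt1 and Amh of the Sertoli list and Adgre1 and Csf1r of the macrophage list had no counted contig. Nor had any marker on the peritubular, endothelial and erythroid lists, so all of these were not analysed here. Elongated spermatid markers, the protamines and transition proteins among them, were higher for 24 of 26 contigs, and round spermatid markers were lower for 4 of 10 in wt/wt and 3 of 10 in dcat/dcat and higher for none. Of all tested contigs, 23.8% were higher and 16.5% lower in wt/wt, and 24.0% higher and 16.9% lower in dcat/dcat. No list was tested against these shares.

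The summed level of these lists placed the Leydig transcripts among them. Without Fdx1, the Leydig contigs summed to 14.96 to 49.1 CPM in RS and 267 to 1050.2 CPM in ES. The Sertoli markers summed to 23.5 to 85.2 CPM in RS and 368 to 717 CPM in ES, and the macrophage markers to 9.14 to 17.1 and 148 to 209.7 CPM. Of these 3 sums, the Leydig sum had the widest range in ES. ES dcat/dcat replicate 3, highest for the Leydig sum, was close to the lowest for macrophage markers (149 CPM) and had 645 CPM of Sertoli markers, while ES dcat/dcat replicate 1, lowest for the Leydig sum, had 183 CPM of macrophage markers and 494 CPM of Sertoli markers. In RS the Leydig sums were 16.6, 40.5 and 49.1 CPM for wt/wt and 14.96, 15.7 and 38.7 CPM for dcat/dcat. The elongated spermatid markers summed to 21876, 37145 and 44991 CPM and to 26263, 37375 and 44803 CPM in the same libraries. In RS their order within each genotype was thus that of the Leydig sums. For dcat/dcat replicates 1 and 2 the Leydig order rested on 14 and 12 reads, a gap within counting error. The RS macrophage sums had this order too, but dcat/dcat replicates 2 and 3 were at 14.4 and 14.8 CPM. The RS Sertoli sums had it in wt/wt only. Nothing further is read from an order of 3 libraries. In ES the elongated spermatid markers did not follow the Leydig sums. They summed to 271604, 293429 and 223383 CPM for wt/wt, beside Leydig sums of 444, 812 and 900 CPM. For dcat/dcat they summed to 267128, 256440 and 234000 CPM, beside 267, 439 and 1050.2 CPM. The part of somatic cells, of free RNA or of ES themselves in these values was not tested.

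**Figure D4:**
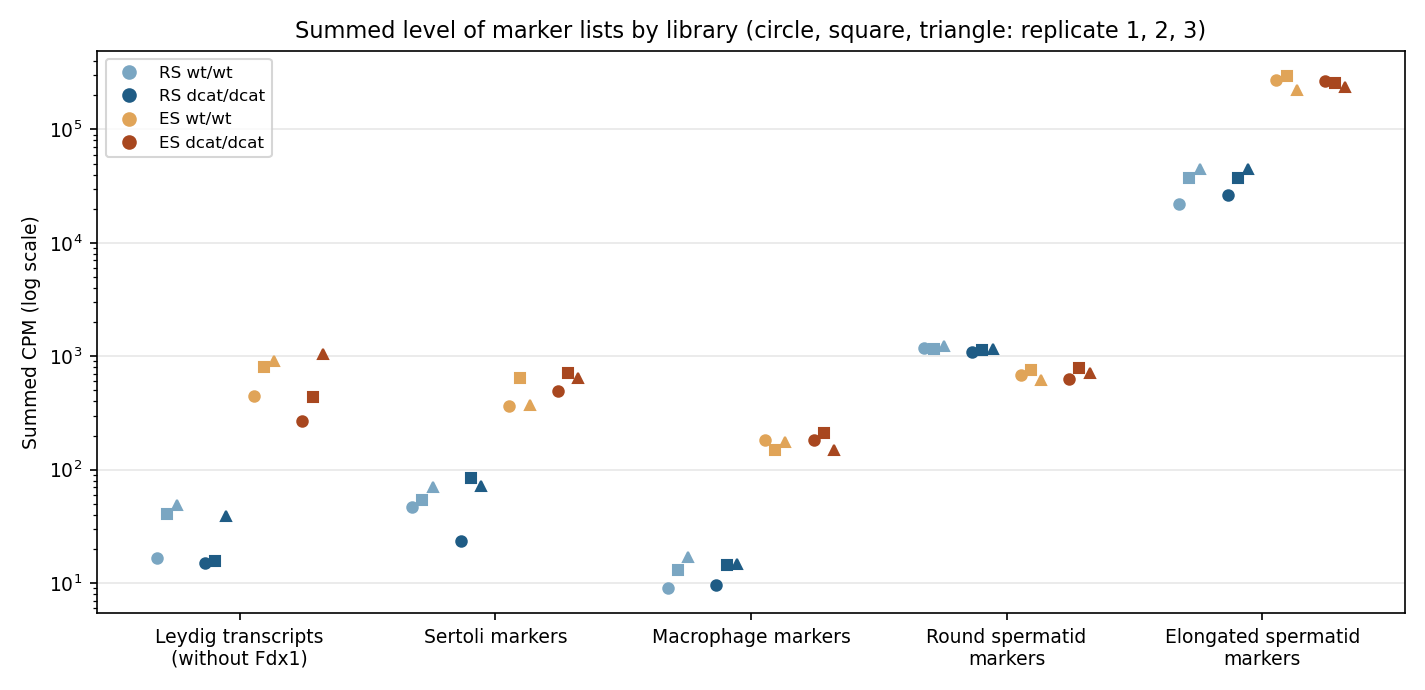
Summed CPM (log axis) of the Leydig contigs without Fdx1 and of 4 marker lists in each of the 12 libraries. Leydig, Sertoli, macrophage and elongated spermatid sums are higher in every ES library than in every RS library, and round spermatid sums are lower.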

How the data were processed

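The authors base-called the nanopore direct RNA reads, aligned them with minimap2 to GENCODE transcripts (GRCm38) and deposited raw counts of reads per contig. Their methods describe a filter on low counts before further analysis, and whether the deposited counts came after it is not stated. A gene without a counted contig may therefore still have had reads. Deposited DESeq2 tables gave the gene symbol of each contig; their fold changes and p-values were not used. Positions came from GENCODE vM21. Counts were analysed with edgeR 4.0.16 in R 4.3.3: TMM scaling (factors 0.741 to 1.31), all 12 libraries in 1 model of 4 groups, quasi-likelihood F tests and Benjamini-Hochberg adjustment; SE is the fold change over the root of F, and log2 CPM used a prior count of 2. The script was tested on simulated data. Same-numbered libraries deviated together in RS (r = 0.777, 0.493 and 0.608) and between stages of dcat/dcat (0.624, 0.363 and 0.414), but not for every pair in ES (0.627, 0.457 and 0.051) or wt/wt. The members and lists were chosen with earlier results of these data known. Named genes were all members, up to 4 high contigs a list, and the nearest 8 to Insl3. Alternatives covered scaling, filters, DESeq2 1.42.0, gene sums, fewer groups, a replicate block and single libraries left out. Comparisons that share a group are not independent. P-values measure the spread between library pools.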

Additional observations from a re-analysis of the deposited data

How the results depend on the processing

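The number of Leydig contigs called between stages stayed from 6 to 9 under other scalings, no filter, DESeq2, sums by gene, pairs of groups alone, the Insl3 and Jak3 sum (chosen after seeing the data) and single libraries left out (7 to 8 in wt/wt, 6 to 8 in dcat/dcat, where contigs that failed the filter account for the lower counts). Requiring 10 reads in every library kept Fdx1 alone, with 0 called in wt/wt and 1 in dcat/dcat (-0.75). With the replicate block 8 and 8 were called, and the block changed no member's call. Genotype and interaction counts were 0 under all settings. With genotype means removed 7 gene pairs passed. Values not called changed sign as follows. In the interaction, Insl3 was 0.0128 with total counts, Mgst1 -0.0266 with RLE, Cyp11a1 -0.0667 and Mgst1 -0.0479 with DESeq2, and Ptgds -0.0757, Cyp11a1 -0.11 and Mgst1 -0.14 with the replicate block, which gave Fabp3 -0.11 and Mgst1 -0.0019 between genotypes in ES. Leaving out single libraries gave, for Fdx1 between stages in wt/wt, -0.33 to 0.0370. Between genotypes in RS it gave Ptgds -0.48 to 0.95, Cyp11a1 -0.16 to 3.10, Fabp3 -0.98 to 0.83, Mgst1 -3.54 to 1.69 and Fdx1 -0.0433 to 0.32. In ES it gave Ptgds -0.80 to 0.62, Cyp11a1 -0.84 to 0.93, Cyp17a1 -0.18 to 1.11, Aldh1a1 -0.43 to 0.21, Fabp3 -1.21 to 0.61 and Mgst1 -0.13 to 0.60. For the interaction it gave Insl3 -0.69 to 0.50, Ptgds -0.87 to 0.67, Cyp11a1 -2.56 to 0.73, Fabp3 -1.52 to 1.11 and Mgst1 -1.54 to 3.69. The Insl3 to Cyp17a1 difference stayed negative, -1.59 to -0.84. The cause of these changes was not tested; RS values rest on a few reads.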
